A study of Mus musculus with 3 samples.

Results

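The genes described here encode proteins of the extracellular matrix: every gene whose symbol marks it as a collagen chain or a laminin chain, together with Fn1, Sparc, Sparcl1, Fbln1, Fbln2, Fbn1, Mfge8, Nid1, Nid2, Hspg2 and Agrn. This rule found 66 of the 31053 genes in the count matrices, of which 44 were collagen genes and 11 were laminin genes. They were chosen by name and not by a cut on their values, but with earlier results of these data known. Expression was measured in single cells, by droplet sequencing of methanol-fixed cells with unique molecular identifiers (UMIs), in 3 cultures of C57BL/6 mouse cortex, each with 1 library. MIM-treated astrocytes were moved from their own medium to MIM, which lacks serum and holds FGF2 at 20 ng/mL with up to 6 added metabolites (cysteine, methionine and its product S-adenosylmethionine, glycine, threonine, and putrescine), and they were collected no later than day 5. Astrocytes stayed in a differentiation medium with 10% serum. Neural stem cells were taken from the cortex at E14.5 and grown as neurospheres, without serum, with EGF and FGF2 at 20 ng/mL each. Both astrocyte cultures adhered to polylysine, whereas neurospheres float. The labels give E14.5 for the astrocyte libraries, while the protocol describes either pups at P4 or dissociated neurospheres as their source, and neither the metabolite combination nor the day of this MIM library is stated. Serum, FGF2, base medium and metabolites changed together between the astrocyte cultures and cannot be told apart.

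Collagens are triple helices of 3 chains that assemble into fibrils, networks or beaded filaments, depending on the chain type. Basement membranes are thin sheets made mostly of a collagen IV network and a laminin network, bridged by nidogens and heparan sulphate proteoglycans. In the brain such sheets lie at blood vessels and beneath the meninges, while the tissue between them holds little fibrillar collagen. Astrocytes secrete matricellular proteins, among them Sparc and its relative Sparcl1 (hevin), which act on cell adhesion and on synapse formation rather than as scaffold.

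The kept cells numbered 14964 in the MIM-treated library, 9818 in the astrocyte library and 9145 in the neural stem cell library, with 50906724, 50594420 and 14689259 UMIs in that order. Levels were obtained by summing a gene's UMIs over all kept cells, scaled to counts per 1000000 UMIs of that library (CPM). Ranges in parentheses after a level, a fold or a share are exact 95% intervals, which cover counting error only. With 1 library per group there is no replicate check and no test of any difference. Median UMIs per cell were 3156, 5089 and 1379, and Malat1, a nuclear non-coding RNA, took 9.44%, 13.7% and 26.9% of UMIs. At these totals 3 counts, used as the floor for genes at 0, correspond to 0.0589, 0.0593 and 0.204 CPM. Under TMM scaling the median log2 ratio of genes with at least 50 CPM moved by 0.24 for MIM-treated astrocytes over astrocytes, by 0.16 for astrocytes over neural stem cells and by 0.40 for MIM-treated astrocytes over neural stem cells. Totals without Malat1 moved the medians of the last 2 of these comparisons by −0.24 and −0.31. Pairs of libraries shared 25 to 43 barcodes.

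At least 1 UMI was found for 50 of the 66 matrix genes in MIM-treated astrocytes, for 50 in astrocytes and for 49 in neural stem cells. Col1a2, Col3a1, Col24a1, Col6a4, Col6a6, Col19a1 and Col17a1 had 0 UMIs in all 3 libraries. Col1a2 and Col3a1 encode chains of the main fibrils of connective tissue. Only 5 of the 66 genes reached 50 CPM in any library, namely Sparc, Sparcl1, Mfge8, Fbln2 and Agrn. None of these is a collagen or a laminin, so all entered the set as genes listed singly. Summed over the 66 genes, matrix UMIs came to 985 CPM (976 to 993) in MIM-treated astrocytes, 3664 CPM (3647 to 3681) in astrocytes and 1192 CPM (1174 to 1209) in neural stem cells. Sparc alone took 30.05% (29.6% to 30.5%) of these UMIs in MIM-treated astrocytes, 84.99% (84.8% to 85.1%) in astrocytes and 10.6% (10.2% to 11.1%) in neural stem cells. Sparcl1 took 60.1%, 10.4% and 32.6% in the same order, and Mfge8 took 2.58%, 0.215% and 30.5%. The composition of the matrix transcripts thus differed in each culture, with the largest share taken by Sparcl1 in MIM-treated astrocytes, by Sparc in astrocytes, and by Sparcl1 and Mfge8 together in neural stem cells. The 61 genes outside these 5 made up 5.01%, 4.02% and 14.7% of matrix UMIs.

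**Figure D1:**
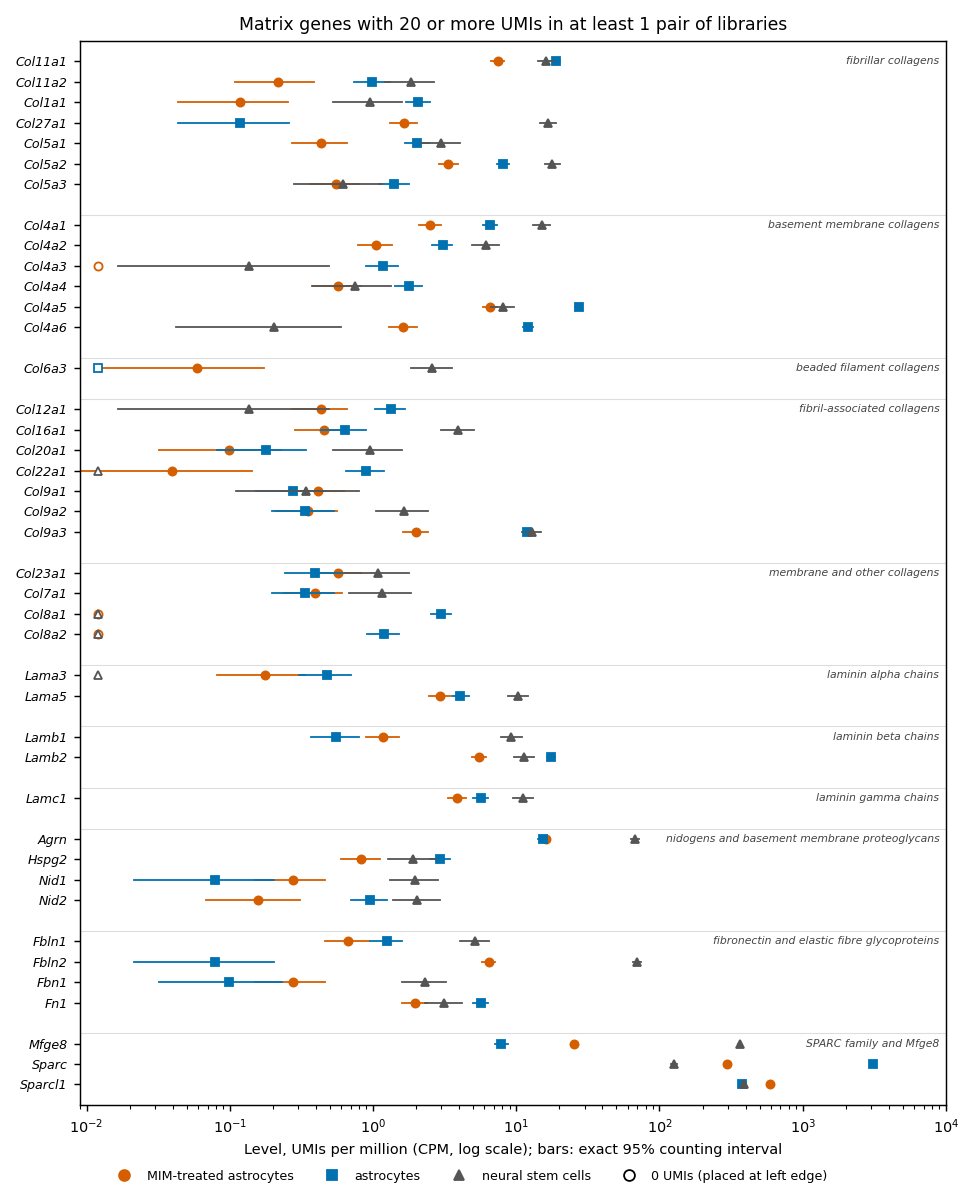
Levels of matrix genes with 20 or more UMIs in at least 1 pair of libraries, in CPM on a log axis, by matrix class, with the 3 libraries as separate symbols, exact 95% counting intervals as bars and open symbols at the left edge for 0 UMIs. Sparc stands at 296 CPM in MIM-treated astrocytes, 3114 CPM in astrocytes and 127 CPM in neural stem cells, while the collagen and laminin genes reach at most 27.2 CPM, which is Col4a5 in astrocytes.

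A gene counted as measured in a comparison when both libraries together held at least 20 of its UMIs, and was called higher or lower at a log2 ratio, with a pseudocount of 1 CPM, of at least 1 in size. The pseudocount shrinks the log2 ratio of genes near or under 1 CPM, whereas fold differences below are ratios of CPM without it. In MIM-treated astrocytes over astrocytes, 38 matrix genes were measured, of which 3 were higher and 16 were lower, beside 8.49% higher and 15.2% lower among all 13876 measured genes. The median log2 ratio was −0.79 for the matrix genes and −0.19 for all measured genes. For astrocytes over neural stem cells, 41 were measured, with 7 higher and 13 lower, beside 19.9% and 22.6% of 13647 genes, and the medians were −0.51 and −0.03. For MIM-treated astrocytes over neural stem cells, 35 were measured, with 2 higher and 20 lower, beside 9.29% and 20.5% of 13097 genes, and the medians were −1.22 and −0.24. As shares of the measured matrix genes, the lower ones made up 42.1%, 31.7% and 57.1% in these 3 comparisons and the higher ones 7.89%, 17.1% and 5.71%. The share of lower genes was thus above the background each time, while the share of higher genes was near or under it. These 3 comparisons share libraries and are not independent, and the minimum of 20 UMIs lets in genes that were read in 1 library alone, so the counts describe measured genes and not the 66. Among genes with at least 50 CPM in either library, 0 of 2 matrix genes were higher and 1 was lower in MIM-treated astrocytes over astrocytes, beside 14.7% and 17.5% of 2895 genes. Under that stricter rule 1 of 5 was higher and 3 were lower in astrocytes over neural stem cells, beside 31.2% and 22.9% of 3192 genes, and likewise 1 of 5 and 3 in MIM-treated astrocytes over neural stem cells, beside 20.3% and 16.2% of 2830 genes. A pseudocount of 10 CPM left 0 higher and 2 lower, 3 and 4, and 1 and 6 in the 3 comparisons. The shares of all measured genes called at that pseudocount were not computed.

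**Figure D2:**
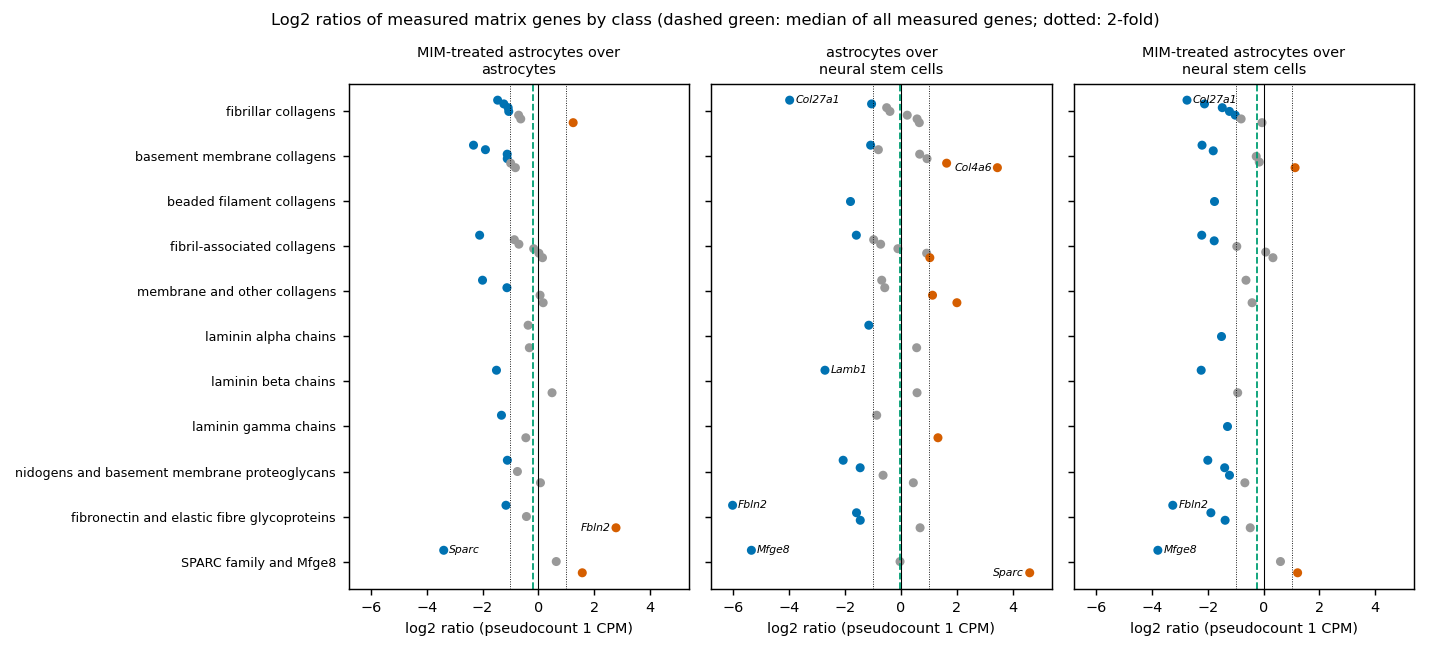
Log2 ratios, with a pseudocount of 1 CPM, of the measured matrix genes by class in the 3 comparisons, with each dot 1 gene (orange higher, blue lower, grey neither), dotted lines at a log2 ratio of 1 in size and a dashed green line at the median of all measured genes. In MIM-treated astrocytes over neural stem cells 20 of 35 dots lie left of the lower dotted line and 2 lie right of the upper one.

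Sparc, a calcium-binding matricellular glycoprotein that binds collagen, was read far more in astrocytes than in the other cultures. Its level was 296 CPM (291 to 301) in MIM-treated astrocytes, 3114 CPM (3098 to 3129) in astrocytes and 127 CPM (121 to 133) in neural stem cells. Its level in MIM-treated astrocytes was thus 10.5-fold lower (10.3 to 10.7) than in astrocytes and 2.34-fold higher (2.23 to 2.45) than in neural stem cells, while astrocytes stood 24.6-fold higher (23.5 to 25.8) than neural stem cells. The log2 ratio of MIM-treated astrocytes over neural stem cells, 1.22, fell under 1 when Malat1 was left out of the totals. Sparcl1, a secreted relative of Sparc made by astrocytes, had 591 CPM (585 to 598) in MIM-treated astrocytes, 379.5 CPM (374 to 385) in astrocytes and 389 CPM (379 to 399) in neural stem cells. Its log2 ratios of 0.64, −0.03 and 0.60 in the 3 comparisons were all under 1 in size, although with TMM scaling the last exceeded 1. The sign of the second turned under TMM scaling, with each cell weighing the same, after thinning and without the cells with the most UMIs. Mfge8, a secreted bridging protein that links phosphatidylserine on dying cells to integrins of phagocytes, had 25.4 CPM (24.03 to 26.8) in MIM-treated astrocytes, 7.89 CPM (7.13 to 8.699) in astrocytes and 363 CPM (354 to 373) in neural stem cells. Its level in MIM-treated astrocytes was 3.22-fold higher (2.88 to 3.61) than in astrocytes and 14.3-fold lower (13.5 to 15.2) than in neural stem cells, while astrocytes stood 46.1-fold lower (41.6 to 51.2) than neural stem cells. Both Mfge8 and Sparc therefore had a level in MIM-treated astrocytes between those of the other two cultures, with astrocytes and neural stem cells in opposite order for the 2 genes. Sparcl1 (ENSMUSG00000029309, chromosome 5, 104079111 to 104113733, minus strand) did not follow either order.

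Fbln2 encodes fibulin-2, a glycoprotein that binds fibronectin, elastic fibre proteins and basement membrane components. It had 326 UMIs in MIM-treated astrocytes, 4 in astrocytes and 1022 in neural stem cells, or 6.404 CPM (5.73 to 7.14), 0.0791 CPM (0.0215 to 0.202) and 69.6 CPM (65.4 to 73.97) in that order. In MIM-treated astrocytes it was 81.00-fold higher (31.3 to 299) than in astrocytes and 10.9-fold lower (9.58 to 12.3) than in neural stem cells, and in astrocytes it was 880.0-fold lower (343 to 3236) than in neural stem cells, folds that rest on the 4 UMIs in astrocytes where these are involved. The order over the cultures was the same as for Mfge8. Fbln1, fibulin-1, had 0.668 CPM (0.463 to 0.933) in MIM-treated astrocytes, 1.25 CPM (0.957 to 1.59) in astrocytes and 5.17 CPM (4.08 to 6.48) in neural stem cells, and compared with neural stem cells was 7.75-fold lower (5.11 to 11.97) in MIM-treated astrocytes and 4.16-fold lower (2.94 to 5.898) in astrocytes. Fbn1, the microfibril protein fibrillin-1, had 14, 5 and 34 UMIs in the 3 libraries. Fn1, fibronectin, which cells bind through integrins, had its highest level in astrocytes, with 1.96 CPM (1.598 to 2.39) in MIM-treated astrocytes, 5.63 CPM (4.998 to 6.33) in astrocytes and 3.13 CPM (2.29 to 4.18) in neural stem cells. Its level in MIM-treated astrocytes was 2.87-fold lower (2.28 to 3.64) than in astrocytes, a call that was lost with TMM scaling. Fn1 overlaps Apol7d on the opposite strand, and whether counting used strand is not given in the sources used here.

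The promoter windows of Sparc, Mfge8 and Fbln2 are shown because these genes had called differences in every comparison and reached 50 CPM. They are printed from RefSeq (build GRCm38.p6), each running from 250 bases before to 50 after the annotated start. Capitals mark every match, on either strand, to 5 short motifs: TATAAA (the TATA box), CCAAT (the box of that name), GGGCGG (the GC box), GGAGGA (a purine run) and TGANTCA (the core that AP-1 binds).
Sparc (chr11:55420031-55420330, minus strand): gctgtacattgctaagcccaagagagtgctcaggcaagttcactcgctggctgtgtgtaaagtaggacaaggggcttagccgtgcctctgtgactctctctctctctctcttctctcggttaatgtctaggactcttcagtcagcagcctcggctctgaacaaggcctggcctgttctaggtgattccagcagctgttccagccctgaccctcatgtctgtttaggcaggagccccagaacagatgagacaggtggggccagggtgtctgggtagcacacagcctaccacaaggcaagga
Mfge8 (chr7:79149011-79149310, minus strand): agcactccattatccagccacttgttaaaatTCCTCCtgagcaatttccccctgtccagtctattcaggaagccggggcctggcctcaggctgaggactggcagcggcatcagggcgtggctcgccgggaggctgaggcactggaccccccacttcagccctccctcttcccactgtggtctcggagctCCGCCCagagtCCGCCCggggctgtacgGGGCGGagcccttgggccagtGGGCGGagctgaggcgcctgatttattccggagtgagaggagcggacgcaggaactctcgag
Fbln2 (chr6:91212514-91212813, plus strand): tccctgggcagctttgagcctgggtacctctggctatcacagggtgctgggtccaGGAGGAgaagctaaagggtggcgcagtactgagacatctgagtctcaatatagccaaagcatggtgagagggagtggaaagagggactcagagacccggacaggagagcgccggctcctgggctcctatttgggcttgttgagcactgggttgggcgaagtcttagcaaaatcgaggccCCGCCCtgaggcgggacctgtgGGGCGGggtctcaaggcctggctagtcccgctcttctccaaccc
The Sparc window held none of the 5 motifs, the Mfge8 window held 4 copies of the GC box and 1 of the purine run, and the Fbln2 window held 2 and 1. The starts used by RefSeq for Sparc and Fbln2 lie inside the genes as GENCODE vM21 draws them (ENSMUSG00000018593, chromosome 11, 55394500 to 55423183, minus strand, and ENSMUSG00000064080, chromosome 6, 91212455 to 91272540, plus strand), so that both printed windows fall within the annotated gene. The same annotation holds Mfge8 (ENSMUSG00000030605, chromosome 7, 79133768 to 79149060, minus strand). RefSeq promoters were found for 48 of the 66 genes, in 54 windows. The GC box stood in 34 of these 54 windows, a larger share than the 35.7% of all 32851 windows. The purine run stood in 28 of 54, also a larger share than its 34.5% of all windows. Shares were smaller than among all windows for the CCAAT box (15 of 54, beside 37.4%), the TATA box (5 of 54, beside 13.6%) and the AP-1 core (1 of 54, beside 7.81%). These differences were not tested. A match describes letters in a window and shows no binding.

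Agrin (Agrn), a heparan sulphate proteoglycan of basement membranes that also clusters receptors at synapses, had 16.2 CPM (15.1 to 17.3) in MIM-treated astrocytes, 15.3 CPM (14.3 to 16.4) in astrocytes and 67.6 CPM (63.5 to 71.9) in neural stem cells. The astrocyte cultures overlapped in their counting intervals, and compared with neural stem cells Agrn (ENSMUSG00000041936, chromosome 4, 156165290 to 156197488, minus strand) was 4.18-fold lower (3.81 to 4.59) in MIM-treated astrocytes and 4.41-fold lower (4.01 to 4.85) in astrocytes. Perlecan (Hspg2), the other proteoglycan of the class, had 0.825 CPM (0.595 to 1.12) in MIM-treated astrocytes, 2.94 CPM (2.49 to 3.46) in astrocytes and 1.91 CPM (1.27 to 2.75) in neural stem cells. Its level in MIM-treated astrocytes was 3.57-fold lower (2.52 to 5.15) than in astrocytes, which TMM scaling brought under the call size. The nidogens, which join the laminin and collagen IV networks, had 14, 4 and 29 UMIs for Nid1 and 8, 48 and 30 for Nid2 in the 3 libraries. In MIM-treated astrocytes Nid1 was 7.18-fold lower (3.67 to 14.7) and Nid2 13.00-fold lower (5.82 to 32.8) than in neural stem cells. Nid2 overlaps Rtraf on the opposite strand.

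The 11 fibrillar collagen genes summed to 13.8 CPM (12.8 to 14.9) in MIM-treated astrocytes, 33.7 CPM (32.1 to 35.3) in astrocytes and 57.3 CPM (53.4 to 61.3) in neural stem cells, in an order that placed the treated culture below both others. Col11a1, a chain of the thin fibrils of collagen XI, had 7.44 CPM (6.71 to 8.23) in MIM-treated astrocytes, 18.9 CPM (17.7 to 20.2) in astrocytes and 16.1 CPM (14.1 to 18.3) in neural stem cells. Col5a1 and Col5a2, chains of collagen V that start fibril assembly, followed a gradient with neural stem cells highest. Col5a2 had 3.36 CPM in MIM-treated astrocytes, 8.104 CPM in astrocytes and 17.9 CPM in neural stem cells, and Col5a1 had 0.432, 2.04 and 2.995 CPM in that order. Col27a1, a fibrillar collagen known from cartilage, was the only fibrillar gene called higher in MIM-treated astrocytes relative to astrocytes. It had 1.65 CPM (1.32 to 2.04) in MIM-treated astrocytes, 0.119 CPM (0.0435 to 0.258) in astrocytes and 16.7 CPM (14.7 to 18.98) in neural stem cells, and its level in MIM-treated astrocytes was 13.9-fold higher (6.13 to 38.99) than in astrocytes, where 6 UMIs were read. In astrocytes it was 141-fold lower (63.96 to 389) than in neural stem cells. Its order over the cultures matched that of Mfge8 and Fbln2. Col1a1, a chain of collagen I, had 6 UMIs in MIM-treated astrocytes, 105 in astrocytes and 14 in neural stem cells, while its partner Col1a2 had 0 in each. Col5a3 reached at most 1.403 CPM, in astrocytes, and Col11a2 at most 1.84 CPM, in neural stem cells. Col2a1 had 1 or 2 UMIs in each library, and Col3a1 and Col24a1 had none.

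Basement membrane collagens showed another pattern, with 12.4 CPM (11.5 to 13.4) in MIM-treated astrocytes, 52.1 CPM (50.1 to 54.1) in astrocytes and 31.2 CPM (28.5 to 34.2) in neural stem cells. Collagen IV is built from 6 chains, whose genes lie as head-to-head pairs: Col4a1 with Col4a2 on chromosome 8, Col4a3 with Col4a4 on chromosome 1, and Col4a5 with Col4a6 on chromosome X. Col4a1 (minus strand, from 11198423 to 11312826) and Col4a2 (plus strand, from 11312805 to 11449287) overlap at their starts, so their RefSeq promoter windows share the 78 bases from 11312777 to 11312854. Both windows are shown because the 2 genes kept nearly the same ratio in every library.
Col4a1 (chr8:11312777-11313076, minus strand): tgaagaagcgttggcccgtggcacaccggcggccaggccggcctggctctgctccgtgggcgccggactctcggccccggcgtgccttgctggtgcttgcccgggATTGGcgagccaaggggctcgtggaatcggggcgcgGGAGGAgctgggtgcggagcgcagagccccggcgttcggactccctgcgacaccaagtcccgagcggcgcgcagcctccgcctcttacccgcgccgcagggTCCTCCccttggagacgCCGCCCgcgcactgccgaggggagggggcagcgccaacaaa
Col4a2 (chr8:11312555-11312854, plus strand): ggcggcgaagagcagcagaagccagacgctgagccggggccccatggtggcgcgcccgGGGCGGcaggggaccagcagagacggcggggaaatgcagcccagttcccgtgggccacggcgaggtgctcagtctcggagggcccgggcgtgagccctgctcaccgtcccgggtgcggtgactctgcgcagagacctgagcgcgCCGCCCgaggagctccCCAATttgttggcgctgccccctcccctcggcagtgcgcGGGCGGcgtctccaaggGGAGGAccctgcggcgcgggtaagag
Capitals again mark the 5 motifs: the Col4a1 window held 1 CCAAT box, 1 GC box and 2 purine runs, and the Col4a2 window held 1, 3 and 1. Col4a1 had 2.49 CPM (2.08 to 2.97) in MIM-treated astrocytes, 6.58 CPM (5.89 to 7.33) in astrocytes and 15.1 CPM (13.2 to 17.2) in neural stem cells. For Col4a2 the levels were 1.04 CPM (0.7799 to 1.36), 3.06 CPM (2.600 to 3.59) and 6.13 CPM (4.93 to 7.53) in that order. Col4a1 made up 70.6% (63.3% to 77.1%) of the UMIs of the pair in MIM-treated astrocytes, 68.2% (63.9% to 72.3%) in astrocytes and 71.2% (65.8% to 76.1%) in neural stem cells, shares whose intervals overlap. In MIM-treated astrocytes Col4a1 was 6.06-fold lower (4.85 to 7.59) and Col4a2 5.88-fold lower (4.15 to 8.43) than in neural stem cells. Without knowledge of strand use, reads from the short stretch where the 2 genes overlap cannot be assigned to one of them.

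The X-linked pair followed the opposite order between astrocytes and neural stem cells. Col4a5 had 6.58 CPM (5.89 to 7.32) in MIM-treated astrocytes, 27.2 CPM (25.8 to 28.7) in astrocytes and 8.101 CPM (6.71 to 9.69) in neural stem cells. Col4a6 had 1.63 CPM (1.299 to 2.02) in MIM-treated astrocytes, 12.2 CPM (11.2 to 13.2) in astrocytes and 0.204 CPM (0.0421 to 0.597) in neural stem cells, the last from 3 UMIs. Astrocytes thus stood 3.36-fold higher (2.79 to 4.09) than neural stem cells for Col4a5 and 59.6-fold higher (20.3 to 289.9) for Col4a6, while MIM-treated astrocytes were 4.14-fold lower (3.67 to 4.68) and 7.47-fold lower (5.93 to 9.51) than astrocytes. Col4a6 in MIM-treated astrocytes was also 7.98-fold higher (2.64 to 39.5) than in neural stem cells, a call that was lost without the 8% of cells with the most UMIs. Starts of this pair lie 1309 bases apart. Col4a5 took 80.1% (75.99% to 83.9%) of the pair's UMIs in MIM-treated astrocytes, 69.1% (67.03% to 71.1%) in astrocytes and 97.5% (92.98% to 99.5%) in neural stem cells, so that this pair did not keep 1 ratio. Col4a3 had 0 UMIs in MIM-treated astrocytes, 59 in astrocytes and 2 in neural stem cells, and Col4a4, whose start lies 72 bases away, had 29, 90 and 11. Of all collagen IV UMIs, the Col4a5 and Col4a6 pair made up 66.7% (62.8% to 70.4%) in MIM-treated astrocytes, 75.8% (74.1% to 77.4%) in astrocytes and 27.3% (23.2% to 31.7%) in neural stem cells. The Col4a1 and Col4a2 pair made up 28.7% (25.2% to 32.4%), 18.5% (17.1% to 20.1%) and 69.8% (65.3% to 74.02%). In the mix of chains MIM-treated astrocytes therefore lay nearer to astrocytes than to neural stem cells, although their summed level was below both. Col18a1, the source of endostatin, had 4, 6 and 11 UMIs, and Col15a1 had 1, 0 and 1.

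**Figure D3:**
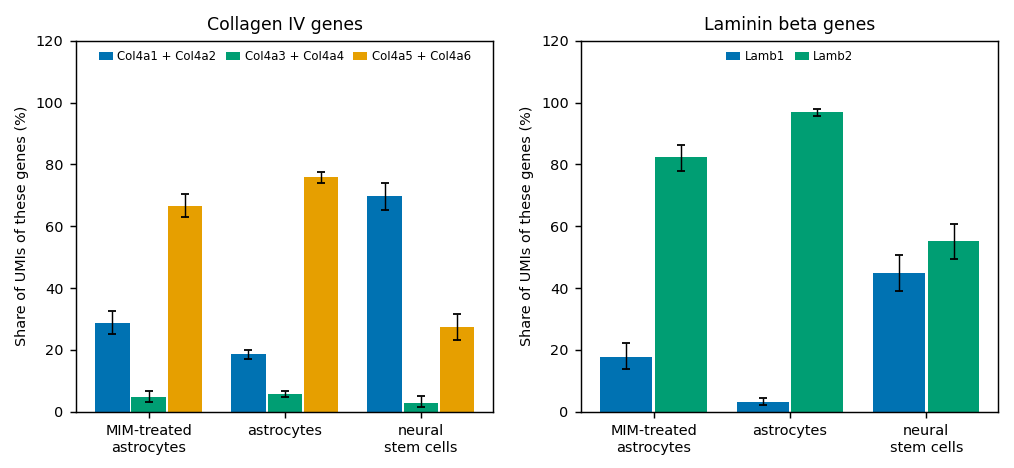
Share of UMIs, in percent, taken by each gene pair among the 6 collagen IV genes (left) and by Lamb1 and Lamb2 among the 2 (right), in the 3 libraries, with exact 95% binomial intervals. Col4a5 with Col4a6 takes 66.7% in MIM-treated astrocytes, 75.8% in astrocytes and 27.3% in neural stem cells, and Lamb1 takes 17.6%, 3.08% and 44.9%.

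The remaining collagens were scarce. Of the beaded filament collagen VI genes, Col6a3 had 3 UMIs in MIM-treated astrocytes, 0 in astrocytes and 38 in neural stem cells, while the other 5 genes together had 0, 9 and 0. Fibril-associated collagens, which sit on the surface of fibrils, summed to 3.79 CPM (3.28 to 4.37) in MIM-treated astrocytes, 15.5 CPM (14.4 to 16.6) in astrocytes and 20.01 CPM (17.8 to 22.4) in neural stem cells. Among them Col9a3, a chain of collagen IX, had 1.98 CPM (1.62 to 2.41) in MIM-treated astrocytes, 11.8 CPM (10.9 to 12.8) in astrocytes and 12.9 CPM (11.1 to 14.8) in neural stem cells. Its level in MIM-treated astrocytes was 5.97-fold lower (4.83 to 7.44) than in astrocytes and 6.49-fold lower (5.07 to 8.34) than in neural stem cells, and it overlaps Tcfl5 on the opposite strand. Col16a1 was lower in both astrocyte cultures than in neural stem cells, with 0.452 CPM in MIM-treated astrocytes, 0.632 CPM in astrocytes and 3.95 CPM in neural stem cells. Col12a1 and Col22a1 were read mostly in astrocytes, with 22 and 2 UMIs found in MIM-treated astrocytes, 67 and 45 in astrocytes, and 2 and 0 in neural stem cells. The network collagen VIII, known from the basement membrane of the cornea and from vessel walls, was read in astrocytes only. Col8a1 had 0 UMIs in MIM-treated astrocytes, 152 in astrocytes and 0 in neural stem cells, and Col8a2 had 0, 60 and 0. Against a floor of 3 counts per library, Col8a1 was at least 50.98-fold lower in MIM-treated astrocytes relative to astrocytes, and at least 14.7-fold higher in astrocytes relative to neural stem cells. The other genes of these classes, Col7a1, Col9a1, Col9a2, Col10a1, Col13a1, Col14a1, Col20a1, Col23a1, Col25a1, Col26a1 and Col28a1, held between 0 and 29 UMIs in each library.

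Laminins are heterotrimers of an alpha, a beta and a gamma chain. Their 11 genes summed to 13.97 CPM (12.96 to 15.03) in MIM-treated astrocytes, 29.9 CPM (28.4 to 31.5) in astrocytes and 43.6 CPM (40.3 to 47.2) in neural stem cells. Lama5, a widely expressed alpha chain, had 2.93 CPM (2.48 to 3.44) in MIM-treated astrocytes, 4.07 CPM (3.53 to 4.67) in astrocytes and 10.3 CPM (8.71 to 12.1) in neural stem cells. Lamc1, the common gamma chain, had 3.87 CPM (3.35 to 4.45), 5.65 CPM (5.02 to 6.35) and 11.2 CPM (9.52 to 13.01) in that order. Both were lowest in MIM-treated astrocytes and highest in neural stem cells. In the beta chains the mix differed. Lamb1, the beta chain of early basement membranes, had 1.18 CPM (0.899 to 1.52) in MIM-treated astrocytes, 0.553 CPM (0.368 to 0.7998) in astrocytes and 9.26 CPM (7.77 to 10.95) in neural stem cells. For Lamb2, the beta chain known from neuromuscular synapses and mature vessels, the levels were 5.500 CPM (4.87 to 6.18), 17.4 CPM (16.3 to 18.6) and 11.4 CPM (9.71 to 13.2). Lamb1 thus took 17.6% (13.7% to 22.1%) of the UMIs of these 2 genes in MIM-treated astrocytes, 3.08% (2.06% to 4.42%) in astrocytes and 44.9% (39.2% to 50.7%) in neural stem cells, with intervals that do not overlap. Lamb2 was 3.17-fold lower (2.76 to 3.63) in MIM-treated astrocytes relative to astrocytes, and Lamb1 was 16.7-fold lower (11.1 to 26.1) in astrocytes relative to neural stem cells. Lama3 and Lamb3, chains of epithelial basement membranes, had 9, 24 and 0 UMIs and 7, 4 and 1 UMIs in the 3 libraries. Lama4, the alpha chain of vessel walls, had 0, 0 and 12 UMIs. Lama1, Lama2 and Lamc3 held between 0 and 9 UMIs in each library.

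Genes that build, bind or cut the matrix were described from 4 lists, whose counts stand beside the shares of all measured genes given above: 8.49% higher and 15.2% lower in MIM-treated astrocytes over astrocytes, 19.9% and 22.6% in astrocytes over neural stem cells, and 9.29% and 20.5% in MIM-treated astrocytes over neural stem cells. The medians of all measured genes, in log2, were −0.19, −0.03 and −0.24 in the same order. With TMM scaling these medians were −0.01, 0.10 and 0.07. The shares above are those of the main scaling, and none was computed under other scalings. Of 25 measured collagen-modifying enzymes and chaperones, 0 were higher and 11 lower in MIM-treated astrocytes relative to astrocytes. Their median log2 ratio was −0.68. Plod2, a lysyl hydroxylase of collagen, had 10.9 CPM in MIM-treated astrocytes, 55.5 CPM in astrocytes and 28.3 CPM in neural stem cells. P4ha1, the catalytic subunit of collagen prolyl hydroxylase, had 58.4, 210.4 and 42.5 CPM in that order, and Serpinh1, a collagen chaperone, had 52.7, 153 and 69.4 CPM. In astrocytes over neural stem cells 8 of 25 such genes were higher and 4 lower, a split that became 9 and 2 with TMM scaling and 6 and 5 without Malat1, around a median of 0.27. In MIM-treated astrocytes over neural stem cells 0 of 21 were higher and 8 lower, or 0 and 5 with TMM scaling. That scaling took the list median from −0.53 to −0.16 and the median of all measured genes from −0.24 to 0.07. Of 19 measured matrix receptors, 1 was higher and 9 lower in MIM-treated astrocytes relative to astrocytes, around a median of −0.43. Sdc2 and Sdc4, heparan sulphate proteoglycans of the cell surface, had 26.1 and 97.2 CPM in MIM-treated astrocytes, 142 and 283 CPM in astrocytes, and 6.60 and 67.3 CPM in neural stem cells. Sdc3, the syndecan of neural tissue, had the opposite order between astrocytes and neural stem cells, with 22.8 CPM in MIM-treated astrocytes, 1.21 CPM in astrocytes and 53.4 CPM in neural stem cells. In astrocytes over neural stem cells 7 of 18 receptors were higher and 2 lower, around a median of 0.18, and Itgb8, an integrin chain that activates latent TGF-beta, stood at 22.1 CPM in astrocytes and 71.3 CPM in neural stem cells. In MIM-treated astrocytes over neural stem cells 1 of 17 was higher and 4 lower, both near the shares of all measured genes, or 1 and 1 with TMM scaling, and the median was −0.45. Ddr1, a collagen receptor kinase, had 28.0 CPM in MIM-treated astrocytes and 78.8 CPM in neural stem cells.

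Matrix proteases and their inhibitors were mixed. In MIM-treated astrocytes over astrocytes 4 of 22 were higher and 8 lower, or 5 and 6 with TMM scaling, and the median was −0.40. Serpine2, an inhibitor of thrombin and plasminogen activators, had 2019 CPM in MIM-treated astrocytes, 415 CPM in astrocytes and 1012 CPM in neural stem cells. Timp4, an inhibitor of metalloproteinases, had 283, 60.1 and 96.5 CPM in that order, whereas its relative Timp2 had 66.9, 709 and 51.3 CPM. The order of Timp2 over the cultures was that of Sparc. In astrocytes over neural stem cells 4 of 22 were higher and 5 lower, both near the shares of all measured genes, around a median of −0.37. Against neural stem cells, 3 of 20 in MIM-treated astrocytes were higher and 6 lower, or 4 and 3 with TMM scaling, and the median was −0.64. Plat, tissue plasminogen activator, had 34.7 CPM in MIM-treated astrocytes and 75.7 CPM in neural stem cells. Of the TGF-beta pathway, a signal that induces matrix genes in many cells, 1 of 18 genes was higher and 7 lower in MIM-treated astrocytes relative to astrocytes, or 2 and 6 with TMM scaling, around a median of −0.42. In astrocytes over neural stem cells 6 of 17 were higher and 5 lower. The median of 0.05 (log2) turned to −0.03 without Malat1, where the median of all measured genes stood at −0.24. Against neural stem cells, 0 of 13 in MIM-treated astrocytes were higher and 6 lower, or 0 and 1 with TMM scaling, and the median was −0.97. Skil and Smad4, a repressor and the common mediator of this signal, had 22.9 and 23.5 CPM in MIM-treated astrocytes, 20.5 and 19.5 CPM in astrocytes, and 67.8 and 56.0 CPM in neural stem cells.

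Markers of other cell types that make matrix were summed by list, and in each of 3 lists a single gene supplied most of the astrocyte sum. Summed over 16 fibroblast and meningeal markers, the level was 29.1 CPM in MIM-treated astrocytes, 231 CPM in astrocytes and 32.9 CPM in neural stem cells, with 5, 5 and 8 markers at 0. Ogn (osteoglycin) supplied 189 CPM of the astrocyte value, and the other 15 summed to 22.7, 42.4 and 32.9 CPM in the same order of libraries. Among these Prrx1 was highest in neural stem cells (10.5, 10.9 and 20.5 CPM) and Slc6a13 was nearly unread in astrocytes (1.57, 0.0198 and 1.70 CPM), while Lum, Igf2, Foxd1, Osr1 and Twist2 were at 0 in all 3 libraries. The 11 mural cell markers summed to 8.07 CPM in MIM-treated astrocytes, 48.2 CPM in astrocytes and 15.6 CPM in neural stem cells, with 5, 4 and 7 markers at 0. Acta2 supplied 42.9 CPM of the astrocyte value, and without it the sums were 7.76, 5.24 and 13.3 CPM, lowest in astrocytes. Notch3 had 7.03, 3.48 and 12.9 CPM, whereas Ndufa4l2 was highest in astrocytes with 0.570, 1.34 and 0.272 CPM. The 12 endothelial markers summed to 6.11, 98.8 and 3.27 CPM, of which Slco1a4 supplied 95.3 CPM in astrocytes, with 4, 4 and 5 at 0, Cdh5 and Cldn5 among them in each library. Without Slco1a4 the sums were 4.68, 3.52 and 3.20 CPM, with Egfl7 at 4.18, 1.88 and 1.84 CPM and Kdr at 0.138, 1.03 and 0 CPM. The 14 microglial markers summed to at most 1.23 CPM, with 10, 10 and 12 at 0. To describe matrix genes in cells with fibroblast markers, cells were thinned to 1000 UMIs and marked when they held at least 2 of the markers, which 4 MIM-treated cells, 74 astrocytes and 3 neural stem cells did. In astrocytes the collagens together had 129 CPM in the marked cells and 106 CPM in the other cells, 1.21-fold higher (0.903 to 1.599), and the laminins had 58.1 CPM in the marked cells and 29.7 CPM in the other cells, 1.96-fold higher (1.24 to 2.95). Sparc had 3436 CPM in the marked cells and 3101 CPM in the other cells. Leaving these cells out changed no call among the measured matrix genes in the 3 comparisons, but so few cells could hardly move a call. Whether matrix transcripts lay in fibroblast-like cells was thus not tested.

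Cells with at least 2 mitosis markers after thinning numbered 3616 of 13991 MIM-treated astrocytes, 2 of 9467 astrocytes and 498 of 7688 neural stem cells. In MIM-treated astrocytes Sparcl1 had 341 CPM in the marked cells and 711 CPM in the other cells, 2.08-fold lower (2.02 to 2.15), and Sparc had 236 CPM in the marked cells and 321 CPM in the other cells, 1.36-fold lower (1.31 to 1.41). Neural stem cells showed the same order, with 244 CPM in the marked cells and 409 CPM in the other cells for Sparcl1 and 86.05 CPM in the marked cells and 133 CPM in the other cells for Sparc. Both genes were thus lower in the cells with mitosis markers in both libraries. Fbln1 was higher in them, with 1.46 CPM in the marked cells and 0.319 CPM in the other cells of MIM-treated astrocytes, 4.58-fold higher (2.14 to 10.4), and 17.7 CPM in the marked cells and 3.68 CPM in the other cells of neural stem cells, 4.81-fold higher (2.75 to 8.18). For Fbln2 the values were 6.55 CPM in the marked cells and 6.38 CPM in the other cells of MIM-treated astrocytes, with an interval that includes equality, and 112 CPM in the marked cells and 66.5 CPM in the other cells of neural stem cells, 1.68-fold higher (1.39 to 2.02). This difference between the libraries was not tested. Agrn and the summed collagens had intervals that include equality in both libraries. The marked cells were deeper, with median UMIs of 4189 against 3086 in MIM-treated astrocytes and of 2176 against 1453 in neural stem cells, and the part of depth was not tested. Among cells with no mitosis UMI, 3 matrix genes were higher and 16 lower in MIM-treated astrocytes over astrocytes. The counts were 7 and 13 in astrocytes over neural stem cells, and 2 and 19 in MIM-treated astrocytes over neural stem cells. The shares of all measured genes called among these cells were not computed.

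Cells with at least 2 oligodendrocyte lineage markers numbered 1295 MIM-treated astrocytes, 147 astrocytes and 1108 neural stem cells. In these cells Sparcl1 was 2.01-fold lower (1.89 to 2.14) in MIM-treated astrocytes and 2.99-fold lower (2.65 to 3.39) in neural stem cells than in the other cells of the library, and Sparc was 1.74-fold lower (1.598 to 1.89) and 2.09-fold lower (1.74 to 2.52). Mfge8 was 1.44-fold lower (1.32 to 1.59) and Fbln2 1.83-fold lower (1.45 to 2.33) in the marked neural stem cells, while in MIM-treated astrocytes their intervals included equality. In astrocytes Sparc had 3307 CPM in the marked cells and 3100.5 CPM in the other cells. The marked cells were shallower, with median UMIs of 2128 against 3447 in MIM-treated astrocytes. These medians were 4854 against 5163 in astrocytes and 1429 against 1480 in neural stem cells, and the part of depth was not tested. Across all cells thinned to 1000 UMIs, the variance of Sparc over its mean (the Fano factor, which is 1 under random sampling) was 1.24 in MIM-treated astrocytes, 1.89 in astrocytes and 1.35 in neural stem cells, at means of 0.269, 3.21 and 0.126 UMIs per cell. For Sparcl1 the Fano factors were 1.77, 1.32 and 1.96 at means of 0.524, 0.393 and 0.375 UMIs per cell. The Fano factor of Sparcl1 was therefore higher in MIM-treated astrocytes and neural stem cells than in astrocytes, while that of Agrn stood at 0.998, 0.984 and 1.02. These factors were not corrected for the means, which differed between libraries, so they do not rank relative variation.

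**Figure D4:**
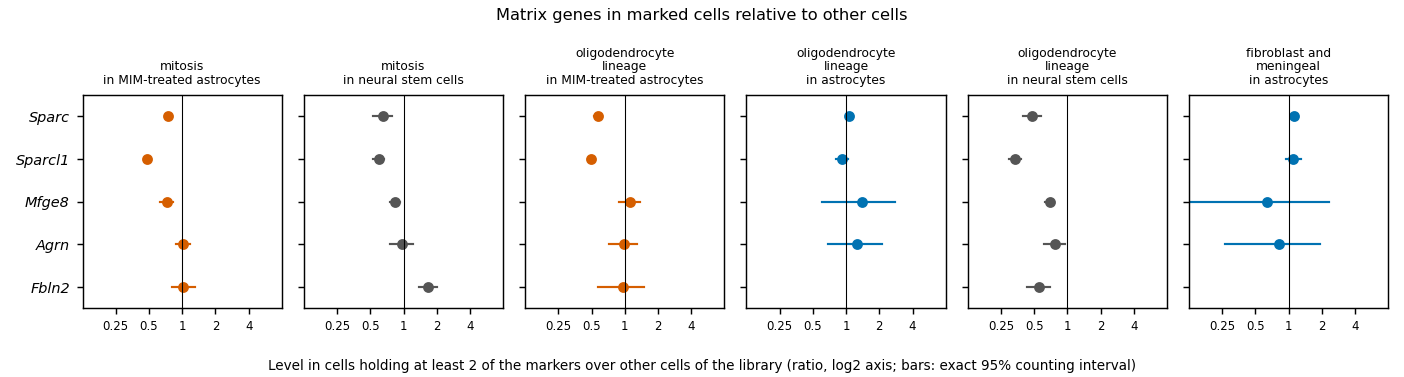
Ratio, on a log2 axis, of the level of 5 matrix genes in cells holding at least 2 markers of a list over the level in the other cells of the same library, with exact 95% counting intervals, for mitosis, oligodendrocyte lineage and fibroblast markers. Sparcl1 lies left of 1 in the cells with mitosis markers of MIM-treated astrocytes and of neural stem cells, at 0.4801-fold and 0.595-fold.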

How the data were processed

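The deposited files hold UMI counts per gene and cell for 31053 genes in each of 3 libraries, made by the authors with Cell Ranger 3.0.2 and an mm10 reference, per the file headers and the labels' protocols. The submitters' processing notes also name Seurat 3.1.1, with no role given. Every deposited barcode held at least 500 UMIs. Strand use in counting and the filter behind that minimum are not given in the sources used here.

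Cells with at least 200 genes and at most 20% mitochondrial UMIs were kept, which removed 13 MIM-treated astrocytes, 7 astrocytes and 12 neural stem cells. No doublet caller was run and no doublet was removed; an alternative left out the 8% of cells with the most UMIs. Counts were summed per library and scaled to its total. A pseudocount of 1 CPM entered each log2 ratio, measured genes held at least 20 UMIs over both libraries, and a log2 ratio of at least 1 in size was called. Levels have exact Poisson intervals, and folds and shares exact binomial ones. All genes were run and the 66 matrix genes taken from the whole table. Genes with 50 CPM in any library are described in full and the others by class. From each further list, at most 2 genes per direction with the largest called ratio and 50 CPM in either library were named. A gene of the set is not reported singly here. The members and lists were chosen with earlier results of these data known.

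Cells were thinned to 1000 UMIs before they were marked (random seed 1), and shallower cells were left out. Alternatives numbered 14 and changed cell filters, scaling, pseudocount, the minimum level, the weight of cells and the cells used, 1 at a time; under other scalings and cell sets the measured genes stayed those of the main setting. edgeR was used for TMM factors only. The ratios and intervals were tested on simulated Poisson counts with 200 changed genes. Only genes with at least 50 CPM were scored, and the intervals assume the same counting model, so the test does not cover the scarcer members. Positions came from GENCODE vM21 for 66 of 66 genes and promoters from RefSeq (GRCm38.p6) for 48. No columns of other samples were present. Tools were Python 3.11.15, numpy 2.4.6, pandas 2.3.3, scipy 1.17.1, matplotlib 3.10.9, R 4.3.3 and edgeR 4.0.16.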

Additional observations from a re-analysis of the deposited data

How the results depend on the processing

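The design has 1 library per group, so no replicate could be left out and variation between cultures is unknown. No paired analysis was possible because the labels give no replicate numbers. Of 84 recomputed counts of higher or lower matrix genes under the 14 alternatives, 69 stayed within 1.5 times of the reported count, and no member or class that was called changed sign. Some alternatives could hardly move a count: dropping the cell filter added back 13, 7 and 12 cells, and leaving out cells with fibroblast markers removed 4, 74 and 3. A change of pseudocount or of the minimum level cannot turn a sign. With a minimum of 50 CPM in either library, matrix genes higher in MIM-treated astrocytes than in astrocytes numbered 0 and lower ones 1. Under the same minimum, 1 was higher and 3 lower in astrocytes over neural stem cells, and 1 was higher and 3 lower in MIM-treated astrocytes over neural stem cells. A pseudocount of 10 CPM gave 0 higher and 2 lower, 3 higher and 4 lower, and 1 higher and 6 lower in these comparisons, since most members lie under 10 CPM. Shares of all measured genes called were computed only for the main setting and the 50 CPM minimum. A pseudocount of 0.1 CPM gave 13 higher in astrocytes over neural stem cells. In MIM-treated astrocytes over neural stem cells, 1 was higher without Malat1 in the totals and 1 was higher without the 8% of cells with the most UMIs. TMM scaling gave 11 lower in MIM-treated astrocytes over astrocytes, where Col5a1, Col5a2, Col4a1, Hspg2 and Fn1 lost their calls, and 18 lower in MIM-treated astrocytes over neural stem cells, where Col11a1 and Lamc1 lost theirs. The same scaling took the median log2 ratio of all measured genes from −0.19 to −0.01 in the first of these comparisons and from −0.24 to 0.07 in the second. Under TMM the summed level of all matrix genes in MIM-treated astrocytes over neural stem cells, that of all collagens in astrocytes over neural stem cells and that of nidogens and proteoglycans in MIM-treated astrocytes over astrocytes changed sign, none of which was called. The causes were not tested. Depth limits the scarce members: 3 counts equal 0.0589 CPM in MIM-treated astrocytes and 0.0593 CPM in astrocytes, against 0.204 CPM in neural stem cells.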
